A study of Mus musculus with 2 samples.

Results

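Genes of bile acid synthesis and sterol export are described here. They were 10 of the 31053 genes in the deposited tables, picked by symbol for their known roles: Cyp7a1, Cyp8b1, Cyp27a1, Cyp7b1, Abcg5, Abcg8, Abca1, Abcb11, Slc10a1 and Nr0b2. They were followed in single liver cells of C57BL/6 mice. The study compared 1 library from mice on chow with 1 library from mice on a NASH diet (non-alcoholic steatohepatitis; high in fructose, fat and cholesterol), each kept on its diet for 6.5 weeks. Cells were released with collagenase and collected over Percoll steps meant to keep hepatocytes of several densities together with the non-parenchymal cells. The labels give neither the age and sex of the mice nor the number of mice in a library.

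Hepatocytes dispose of cholesterol either as bile acids or as unchanged sterol. On the bile acid route, Cyp7a1 starts the classic pathway of bile acid synthesis, Cyp8b1 directs it towards cholic acid, and Cyp27a1 with Cyp7b1 forms the alternative pathway that begins with an oxysterol; Abcb11 (the bile salt export pump) secretes the product into bile, Slc10a1 (NTCP) takes bile acids back up from blood, and Nr0b2 (SHP) is a repressor, induced through the bile acid receptor FXR, that lowers Cyp7a1 transcription. On the sterol route, Abcg5 and Abcg8 form the heterodimer that pumps sterols into bile, and Abca1 loads cholesterol onto apolipoprotein A-I at the start of HDL formation. Abcg5, Abcg8 and Abca1 are textbook targets of the oxysterol receptor LXR, which in mice also raises Cyp7a1.

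The enzymes lie apart in the genome (GRCm38): Cyp7a1 at chr4:6265612-6275633, Cyp8b1 at chr9:121914356-121916305 and Cyp7b1 at chr3:18071950-18243338 on the minus strand, and Cyp27a1 at chr1:74713574-74737892 on the plus strand. Abcg5 and Abcg8, in contrast, are neighbours on chromosome 17 and are read from opposite strands (Abcg5 at chr17:84658234-84683011 on the minus strand, Abcg8 at chr17:84676302-84700333 on the plus strand). Their annotated spans overlap, and the sources used here do not say whether counting used the strand. The 109 bases between their RefSeq start sites are printed because both genes were higher on the NASH diet (GRCm38.p6, chr17:84683012-84683120, plus strand, 5′ to 3′), with capitals on the 2 matches to the GATA motif, TTATCT here and AGATAA on the other strand. AGATAA was found on either strand in 9.99% of 32851 RefSeq promoter windows, searched over the 250 bases before a start.
Abcg5 to Abcg8: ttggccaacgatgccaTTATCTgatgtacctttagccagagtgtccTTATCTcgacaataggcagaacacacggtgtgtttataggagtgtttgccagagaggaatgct
The 120 bases before the start of Abcb11 (chr2:69342617-69342736, minus strand) and of Nr0b2 (chr4:133553256-133553375, plus strand) are printed because both genes are textbook targets of the bile acid receptor FXR and neither differed by 2-fold between the diets. Capitals mark AGGCCATTGACCT in Abcb11, 63 to 51 bases before the start, which holds AGGNCA and its reverse complement 1 base apart, a relaxed form of the inverted repeat that FXR binds. Such a repeat occurred in 28 of the 32851 windows (0.0852%). It was not found in the 250 bases searched before the start of Nr0b2.
Abcb11: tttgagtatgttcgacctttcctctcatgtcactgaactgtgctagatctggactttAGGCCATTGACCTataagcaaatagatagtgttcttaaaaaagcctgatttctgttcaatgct
Capitals in Nr0b2 mark TCAAGG, the core bound by LRH-1 (Nr5a2), which was present 2 times and lay 68 to 63 and 35 to 30 bases before the start; TCAAGG occurred in 12.5% of the windows on either strand.
Nr0b2: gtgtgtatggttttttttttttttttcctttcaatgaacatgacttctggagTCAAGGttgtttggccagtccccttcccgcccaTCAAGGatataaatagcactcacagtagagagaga
RefSeq windows were matched for 8 of the 10 genes. None of these 8 held the exact LXR direct repeat, AGGTCA 2 times in the same direction 4 bases apart. Only 5 of the 32851 windows held it (0.0152%), and no relaxed form was searched, so its absence does not show that these genes lack LXR sites. A match describes letters in the window and not a bound site.

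Levels were unique molecular identifier (UMI) counts, each UMI standing for 1 captured RNA molecule, summed over cells and scaled to a total of 1000000 UMIs of the same cells (CPM). The libraries held 71635757 UMIs in 7359 barcodes for chow and 39440182 UMIs in 5881 barcodes for the NASH diet, and 69 barcode sequences occurred in both. Mitochondrial RNA made up a median of 20.7% of the UMIs of a chow barcode and 34.3% of those of a NASH diet barcode. After filters, 2101 chow cells (46984597 UMIs) and 1138 NASH diet cells (22678595 UMIs) were hepatocyte-like, with median mitochondrial shares of 18.0% and 23.1%. Most of these cells lay in clusters made nearly wholly of 1 library: clusters 0, 1, 3, 5 and 6 for chow and clusters 17, 18 and 19 for the NASH diet. Spp1, a bile duct marker, led the genes of cluster 3, whose Alb level still stood out against the non-parenchymal clusters. With 1 library a diet there is no replicate, so differences between the diets carry no test, and the 95% intervals below cover counting error only.

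Genes of both routes stood higher in the NASH diet library, and the enzymes did not move as a block. Cyp7a1 was at 20.4 CPM in chow hepatocyte-like cells (959 UMIs) and at 127 CPM on the NASH diet (2882 UMIs), a log2 ratio of 2.64 (2.53 to 2.75). Abcg5 was at 13.6 and 49.7 CPM (log2 ratio 1.87, 1.73 to 2.01), and its partner Abcg8 at 24.6 and 55.4 CPM (1.17, 1.06 to 1.29). In the other direction, Cyp7b1, the hydroxylase of the alternative pathway, was at 430 CPM in chow and 232 CPM on the NASH diet (log2 ratio -0.89, -0.94 to -0.85). At a fold of at least 2, 3 of the 10 genes were higher, against 3.43% of the 7921 genes with a mean of at least 5 CPM, and 0 were lower, against 2.3%. All 10 passed that minimum, their median log2 ratio was 0.08, and that of all 7921 genes was 0.15.

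The other 2 enzymes differed little. Cyp8b1 was at 110 CPM in chow and 122 CPM on the NASH diet (log2 ratio 0.14, 0.07 to 0.21). Cyp27a1, the mitochondrial sterol 27-hydroxylase, was at 111 and 112 CPM (0.01, -0.06 to 0.08). Among the 4 enzymes, then, the first step of the classic pathway was higher, Cyp7b1 was lower, and the other two lay near a log2 ratio of 0.

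Abca1 did not follow Abcg5 and Abcg8 in hepatocyte-like cells. Its level was 153 CPM on both diets (log2 ratio -0.01, -0.06 to 0.05). For the bile acid transporters, Slc10a1 was at 357 CPM in chow and 526 CPM on the NASH diet (0.56, 0.52 to 0.59), and Abcb11 at 151 and 144 CPM (-0.07, -0.13 to -0.01). The repressor Nr0b2 was at 37.6 CPM in chow and 28.8 CPM on the NASH diet (-0.38, -0.51 to -0.25). Of these 4 genes, Slc10a1 had the largest difference and none reached 2-fold.

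**Figure D1:**
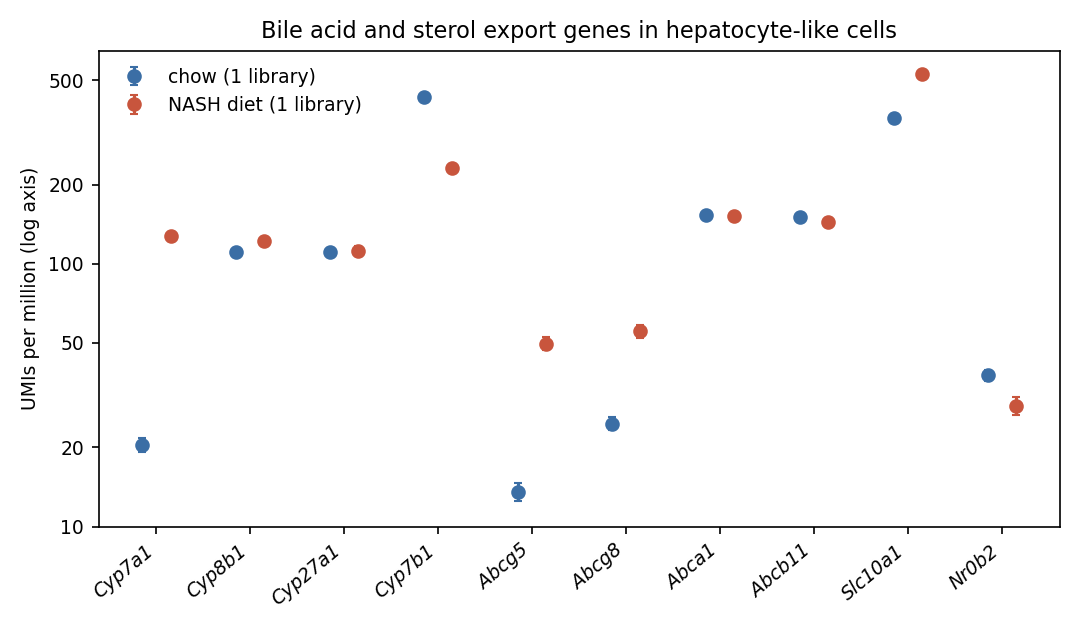
Level of each gene in hepatocyte-like cells, in CPM on a log axis, for 1 chow library and 1 NASH diet library; bars are 95% Poisson intervals of the summed count and cover counting error only. Cyp7a1, Abcg5 and Abcg8 lie higher on the NASH diet, Cyp7b1 lies lower, and Cyp27a1 and Abca1 lie at nearly the same level.

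The directions of the 4 largest differences held in the 14 other settings tried. The log2 ratio ranged from 2.38 to 3.46 for Cyp7a1, from 1.56 to 2.12 for Abcg5, from 1.02 to 1.30 for Abcg8 and from -1.04 to -0.83 for Cyp7b1. That of Slc10a1 ranged from 0.06 to 0.62, and the lowest value came with a mitochondrial limit of 20%. Under that limit the median of all genes was 0.30, so Slc10a1 lay below it. In the main setting Slc10a1 lay above the median of all genes, 0.15. Cyp7a1 was 1 of the 10 leading genes of cluster 18 (330 NASH diet cells and 1 chow cell), so its level may have taken part in the clustering. With hepatocytes taken by marker genes and depth instead of clusters, its log2 ratio was 2.56. The mitochondrial share differed between the libraries, and within cells of 10 to 30% mitochondrial UMIs the ratio was 2.66 for Cyp7a1, 1.87 for Abcg5 and 1.20 for Abcg8. In the barcodes set aside at 30 to 80% mitochondrial UMIs (463 in chow, 2389 on the NASH diet), it was 1.43 for Cyp7a1 (1.07 to 1.80), 1.70 for Abcg5, 0.65 for Abcg8 and -1.36 for Cyp7b1. For Cyp27a1, Abca1, Cyp8b1, Abcb11 and Nr0b2 at least 1 of the 14 settings changed the sign, so no direction is given for these 5.

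Shares of cells were compared after each cell had been thinned to 5000 UMIs. This left 1845 chow and 1053 NASH diet hepatocyte-like cells and dropped 256 and 85 shallower ones. The dropped cells included 124 chow and 36 NASH diet cells of the pericentral group defined below, against 10 and 6 of the periportal group. Cyp7a1 RNA was found in 7.70% of chow cells (95% exact binomial interval 6.52 to 9.01) and 25.4% of NASH diet cells (22.8 to 28.1); unthinned shares were 17.6% and 41.0%. Abcg5 was found in 6.99% and 21.7% of cells, and Abcg8 in 11.0% and 24.3%. Cyp7b1 was found in 76.7% of chow and 60.9% of NASH diet cells, so here too it went the other way. In endothelial cells thinned alike, which should lack the gene, Cyp7a1 was found in 0 of 24 chow and 0 of 26 NASH diet cells. At 3 counts of the total this allows shares of cells with a UMI of up to 12.5% and 11.5%, and the exact binomial upper bounds were 14.2% and 13.2%, all above the chow hepatocyte share of 7.70%. The median depths before thinning were 6531 and 7752 UMIs there and 25219 and 20495 UMIs in the hepatocyte-like cells. Cyp7a1 had the highest ratio of variance to mean of the 10 genes in both libraries. Its variance over thinned cells was 2.38 times its mean in chow and 3.33 times on the NASH diet, while for Abcg5 these values were 1.02 and 1.13.

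Of the 10 genes, Cyp7a1 also differed most by liver zone in both libraries. Zone was read from a score of 10 pericentral landmark genes minus 12 periportal ones, none among the 10 genes described, and cells were ranked within a library and split into groups of equal cell number, pericentral, middle and periportal. In chow, Cyp7a1 was at 46.0 CPM in the pericentral group, 18.5 in the middle and 0.706 in the periportal group, where only 13 UMIs were seen (log2 ratio of pericentral to periportal 6.02). On the NASH diet the values were 273, 69.5 and 11.8 CPM (4.53). The pericentral group held 72.9% of the Cyp7a1 UMIs of chow hepatocyte-like cells and 81.6% of those on the NASH diet. In pericentral cells thinned to 5000 UMIs, Cyp7a1 was found in 16.5% of chow and 54.7% of NASH diet cells. In periportal cells these shares were 0.290% and 4.02%. In the periportal group Cyp7a1 was at 1.54% of its pericentral level in chow and 4.31% on the NASH diet. The 10 pericentral landmarks, which helped to set the score, ranged from 0.139% (Slc1a2) to 34.8% (Aldh1a1) in chow. On the NASH diet they ranged from 0.143% (Slc1a2) to 27.2% (Aldh1a1). Cyp7a1 thus lay within the range of the landmarks in both libraries. Among them Cyp2e1 was at 0.369% in both libraries, while Glul was at 3.42% in chow and 0.763% on the NASH diet.

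Cyp27a1 shared the pericentral pattern at a lower contrast, and Cyp7b1 at a lower one still. Cyp27a1 was at 208, 94.9 and 42.6 CPM from the pericentral to the periportal group in chow, and at 193, 76.3 and 50.7 CPM on the NASH diet. Cyp7b1 was at 605, 379 and 324 CPM in chow and at 335, 184 and 156 CPM on the NASH diet. Its NASH diet level in the pericentral group thus lay near its chow level in the periportal group. Cyp8b1, the enzyme for cholic acid, showed the least zonation of the 4 enzymes, at 124, 111 and 99.2 CPM in chow and 125, 117 and 123 CPM on the NASH diet.

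Abcg5 and Abcg8, partners in 1 pump, had like gradients in chow and unlike ones on the NASH diet. In chow, Abcg5 was at 18.5, 13.5 and 9.62 CPM from pericentral to periportal (log2 ratio 0.94) and Abcg8 at 32.8, 24.4 and 18.0 CPM (0.87). On the NASH diet Abcg8 had a gradient of 77.2, 46.9 and 38.2 CPM (1.02), while Abcg5 was at 53.0, 46.3 and 48.8 CPM (0.12, -0.08 to 0.32). Over 6 other zone settings the NASH diet ratio ranged from -0.06 to 0.31 for Abcg5 and from 0.99 to 1.29 for Abcg8. The 2 ranges did not overlap, but all settings used cells of the same library, so the ranges cover processing only. In 5 finer groups from periportal to pericentral, Abcg5 on the NASH diet was uneven, at 51.2, 41.8, 40.1, 66.5 and 49.2 CPM.

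**Figure D2:**
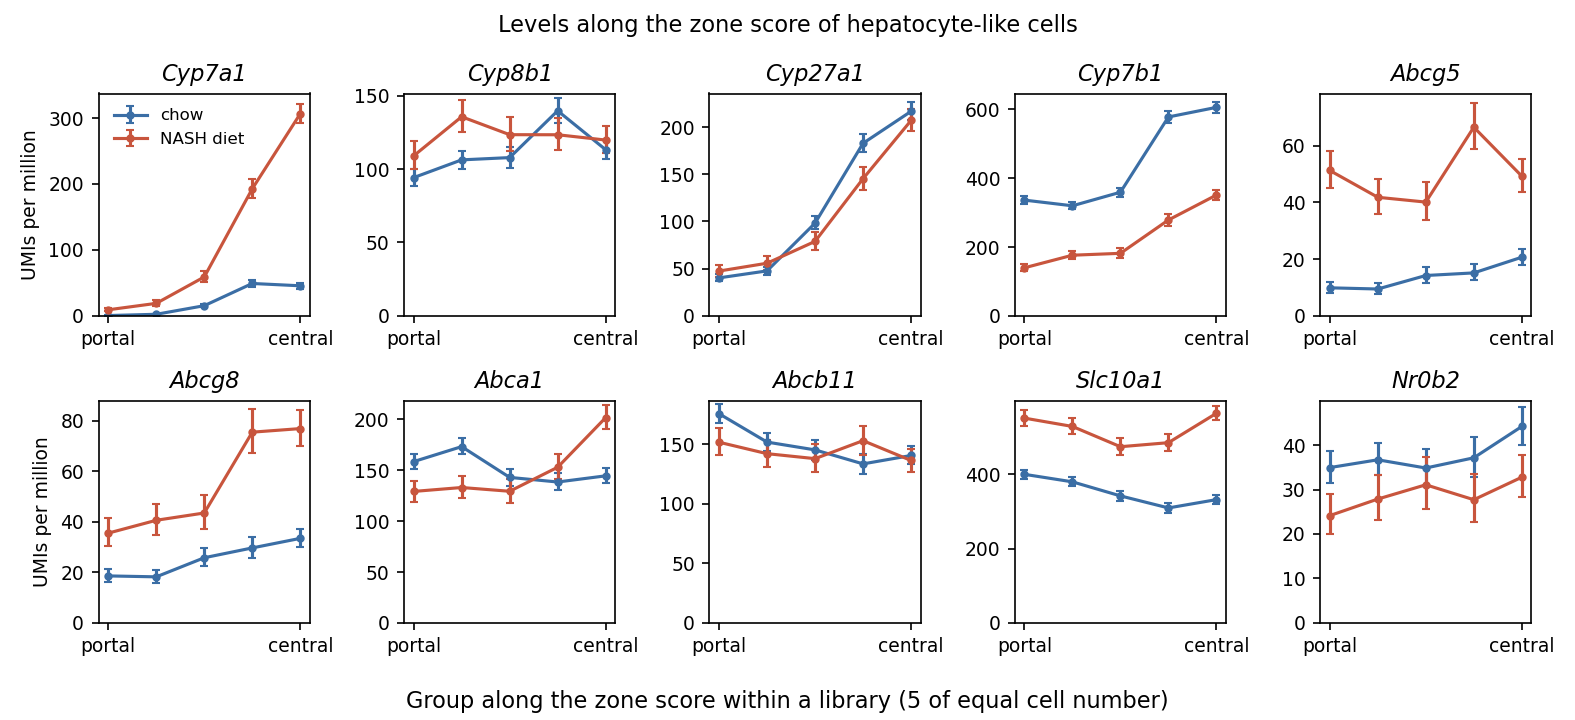
Level of each gene in CPM over 5 groups of equal cell number along the zone score, from the most periportal to the most pericentral hepatocyte-like cells of each library; bars are 95% Poisson intervals. From the first group to the last, Cyp7a1 goes from 0.369 to 45.5 CPM in chow, with 49.0 CPM in the group before the last, and from 9.10 to 307 CPM on the NASH diet, while Abcg5 has a gradient in chow and none of that size on the NASH diet.

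The remaining genes differed by less than 1.5-fold between the pericentral and periportal groups in both libraries. Abca1 was at 143, 150 and 163 CPM in chow and 184, 135 and 132 CPM on the NASH diet, so its highest group was periportal in chow and pericentral on the NASH diet. Its NASH diet log2 ratio of pericentral to periportal was 0.48 (0.36 to 0.59), and ranged from 0.40 to 0.64 over the 6 other zone settings. Abcb11 was at 137, 145 and 167 CPM in chow and 142, 134 and 154 CPM on the NASH diet. Slc10a1 ran from 324 to 392 CPM in chow, lowest in the pericentral group, and from 478 to 546 CPM on the NASH diet. Nr0b2 ran from 33.9 to 42.1 CPM in chow and from 25.0 to 32.1 CPM on the NASH diet, with its highest value in the pericentral group in both. At a fold of at least 1.5, 5 of the 10 genes were higher in the pericentral than in the periportal group in chow, against 8.41% of 7751 genes, and 4 of 10 on the NASH diet, against 17% of 7978 genes; 0 were higher in the periportal group in either library, against 4.3% and 3.91%. The 5 in chow were Cyp7a1, Cyp27a1, Cyp7b1, Abcg5 and Abcg8, and Abcg5 was the one not counted on the NASH diet. Genes that respond to tissue dissociation also differed by zone on the NASH diet: the 11 measured had pericentral to periportal log2 ratios from 0.69 (Dnajb1) to 2.68 (Atf3), against -1.16 (Atf3) to 1.88 (Hspb1) in chow, and their part in the zone values was not tested.

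The difference between the diets could also be read within each group of cells. Cyp7a1 had a log2 ratio of 2.57 (2.45 to 2.69) in the pericentral, 1.91 (1.68 to 2.14) in the middle and 4.06 (3.21 to 5.02) in the periportal group, the last resting on 13 chow and 91 NASH diet UMIs. Abcg5 had 1.52 (1.30 to 1.74), 1.78 (1.51 to 2.06) and 2.34 (2.08 to 2.61), and Abcg8 had 1.23, 0.94 and 1.09. Cyp7b1 was lower in all 3 groups, at -0.85, -1.04 and -1.05. These groups were ranked within a library and need not hold cells of the same position in both: a cut common to both libraries put 753 chow and 327 NASH diet cells in the pericentral group and 575 and 505 in the periportal group.

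**Figure D3:**
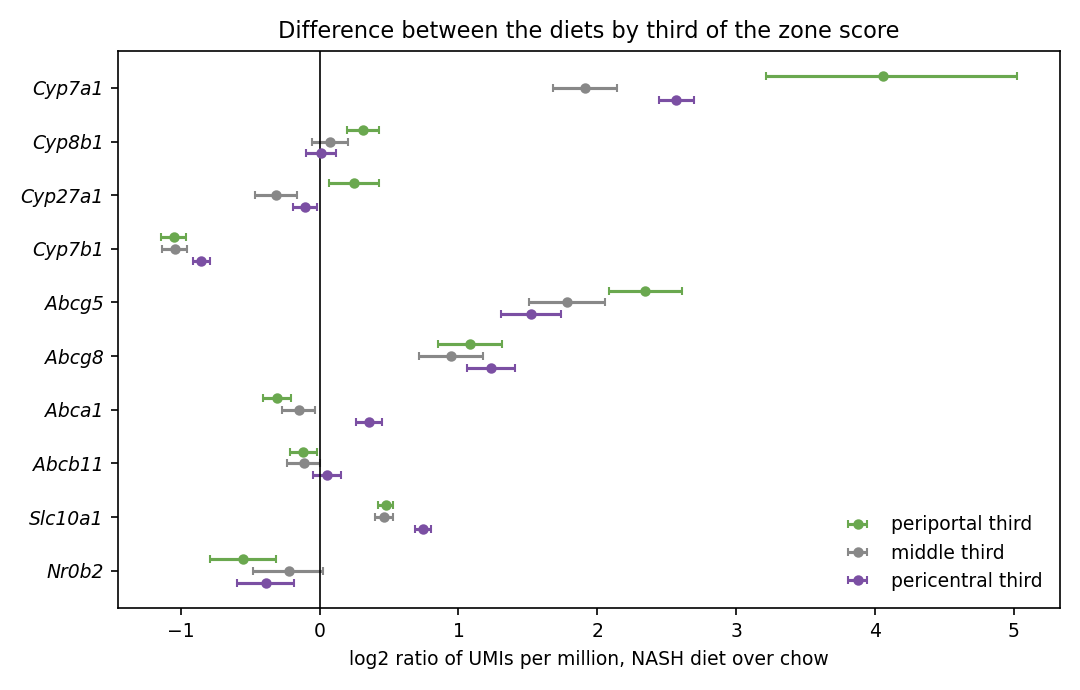
Log2 ratio of CPM, NASH diet over chow, for each gene in the periportal, middle and pericentral group of hepatocyte-like cells; bars are 95% intervals of the ratio of 2 counts. Cyp7a1, Abcg5, Abcg8 and Slc10a1 lie above 0 and Cyp7b1 lies below 0 with their whole intervals in all 3 groups. Abca1 lies above 0 in the pericentral group and below it in the other 2.

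A small cluster rich in nuclear RNA (led by Gm26917, Nr1i3, Malat1 and Neat1; 17 chow and 73 NASH diet cells) was part of the hepatocyte-like class. Its cells held Cyp7a1 at 637 CPM (552 to 732) and Abcg5 at 276 CPM (221 to 340) on the NASH diet, above the 127 and 49.7 CPM of the whole class. Cyp27a1 (368 CPM), Abcb11 (266), Abca1 (225), Cyp8b1 (165), Abcg8 (155) and Nr0b2 (53.9) also lay above their class levels. Cyp7b1 (238 CPM) lay near its class level of 232 CPM. Only Slc10a1, at 228 CPM (179 to 287), lay below its class level, 526 CPM. The pericentral group held Cyp7a1 at 273 CPM on this diet, and the zone of the cluster's cells was not tested. In chow the cluster held 20 UMIs of Cyp7a1 in 3 of 17 cells, and 1 cell gave 90% of them, so no level is compared there. Without this cluster the log2 ratio between the diets was 2.58 for Cyp7a1, 1.78 for Abcg5 and 1.14 for Abcg8.

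Abca1 was also found outside hepatocytes. Kupffer cells, the resident macrophages of the liver, held Abca1 at 460 CPM in chow (390 to 538; 156 UMIs in 48 cells) and 317 CPM on the NASH diet (188 to 501; 18 UMIs in 25 cells, of which 1 cell gave 33.3%). The median depth of these cells was 5510 UMIs in chow and 1375 UMIs on the NASH diet. The mesenchymal cluster, with Dcn and Ecm1 as leading genes, held 273 CPM on both diets (199 to 367 in 18 chow cells and 215 to 341 in 19 NASH diet cells). Endothelial cells held 128 CPM in chow (86.3 to 183; 45 cells) and 199 CPM on the NASH diet (150 to 260; 43 cells). In chow the order was Kupffer, mesenchymal, hepatocyte-like and endothelial, and only the last 2 neighbours overlapped in their intervals. On the NASH diet the order was Kupffer, mesenchymal, endothelial and hepatocyte-like, and every neighbouring pair overlapped. In Kupffer cells the ratio between the diets had an interval from -1.33 to 0.17 in log2 terms and in endothelial cells from -0.03 to 1.33, so no difference was detectable at this depth. With endothelial cells taken by cluster in place of markers (66 and 53 cells) the log2 ratio was 0.75 (0.11 to 1.41). These included 24 chow and 10 NASH diet cells of a shallow cluster with a median of 846 UMIs. The gated Kupffer cells all lay in a mixed leukocyte cluster of 90 chow and 94 NASH diet cells. There the log2 ratio of Abca1 was -1.23 (-1.70 to -0.78). That cluster also held T, NK and B cells, so its ratio is not that of Kupffer cells alone.

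Hepatocyte RNA that leaks into other droplets could supply part of such counts. From the share of hepatocyte marker UMIs in them, 2.21 UMIs of Abca1 were expected in chow Kupffer cells, where 156 were seen, and 1.65 in NASH diet endothelial cells, where 55 were seen. Slc10a1, with more UMIs than Abca1 in hepatocyte-like cells of both libraries, was at 0 UMIs in chow Kupffer cells, where 5.16 were expected. Cyp7a1 and Abcg5 were at 0 UMIs in endothelial, Kupffer and mesenchymal cells of both libraries; 3 counts would correspond to 8.84 to 18.6 CPM in chow and 10.8 to 52.9 CPM on the NASH diet. Of the other genes, Cyp27a1 lay furthest above the expected count, in the mesenchymal cluster, with 11 UMIs in 6 of 19 NASH diet cells (39.5 CPM, 19.7 to 70.7) where 0.803 was expected, and 4 UMIs in 2 of 18 chow cells, of which 1 cell gave 75%, where 0.876 was expected.

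**Figure D4:**
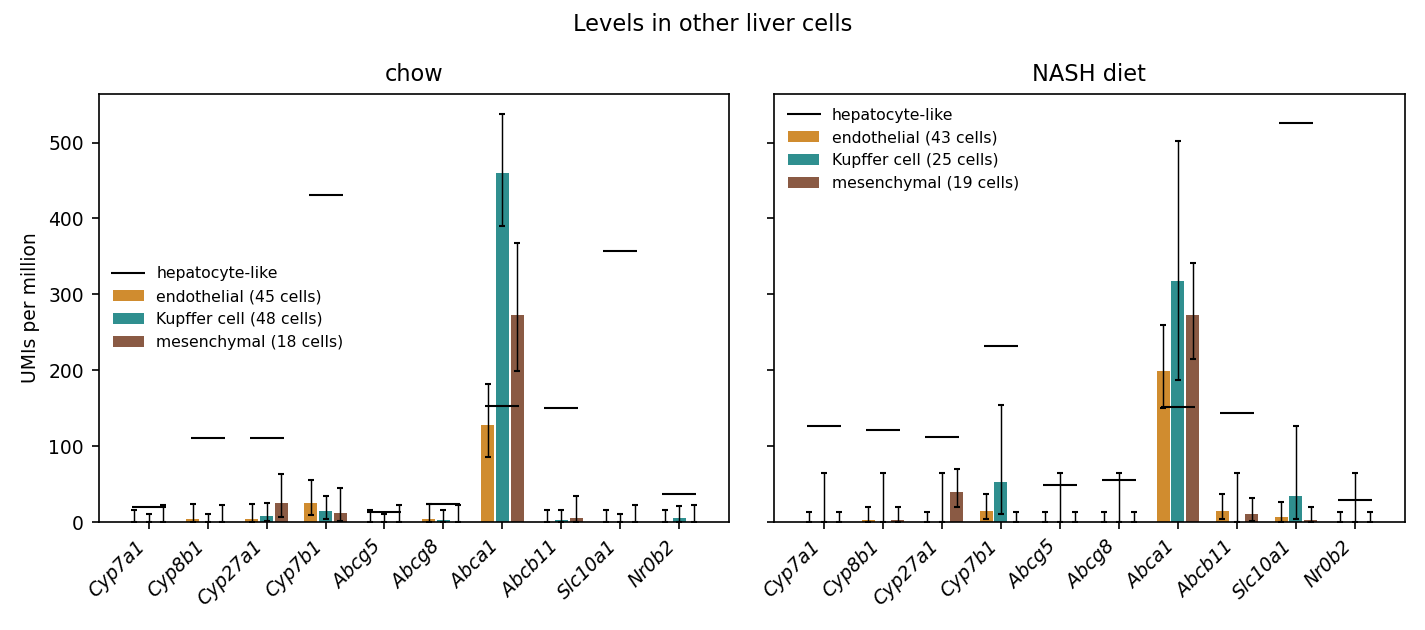
Level of each gene in CPM in endothelial, Kupffer and mesenchymal cells (bars, with 95% Poisson intervals) and in hepatocyte-like cells (black dashes) of the chow and NASH diet libraries. Abca1 lies above its hepatocyte level in all of these cells but the chow endothelial ones, and Cyp7a1 and Abcg5 have bars of 0.

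Related genes placed the 10 among their pathways. Of 13 measured other enzymes of bile acid synthesis, 1 was at least 2-fold higher on the NASH diet, 0 were lower, and the median log2 ratio was 0.60: Akr1d1, the reductase that shapes the bile acid ring system, was at 1.32 and the acyl-CoA synthetase Slc27a2 at 0.93, while Cyp39a1, an oxysterol hydroxylase, was at 0.16 and Cyp2c70, which makes muricholic acids in mice, at -0.51. Of 12 other transporters, 2 were at least 2-fold higher and 0 lower (median 0.66), with the basolateral carriers Slco1a4 at 1.39 and Abcc3 at 1.09, and Slc22a7 at -0.30 and the phospholipid flippase Atp8b1 at -0.38. Of 14 receptors and regulators, 1 was higher and 0 were lower (median 0.06): Nr1i3 (the receptor CAR) was at 1.66, Hnf4a at -0.51 and Fgfr4, the receptor for the gut hormone that represses Cyp7a1, at -0.56. The bile acid receptor itself, Nr1h4 (FXR), was at 0.11, and Nr5a2 (LRH-1), the partner of Nr0b2, at -0.34.

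Among 9 measured genes of the LXR list, 2 were at least 2-fold higher and 0 lower (median 0.66). These were Lpl at 6.07 and the fatty acid desaturase Scd1 at 3.08, while Nr1h2 (LXR beta) was at 0.02 and Fasn, the fatty acid synthase, at -0.50. Of 13 genes for cholesterol esterification, HDL and lysosomal sterol, 0 passed 2-fold in either direction (median 0.22), with the lysosomal exporter Npc1 at 0.85, Stard5 at 0.66, Lcat at -0.39 and Stard4 at -0.67. By contrast, 11 of 12 SREBP2 targets, which carry out cholesterol synthesis and uptake, were at least 2-fold lower (median -3.89), with Sqle at -7.20 and Idi1 at -5.47 the lowest of them. Over all genes 3.43% were higher and 2.3% lower at that fold.

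**Figure D5:**
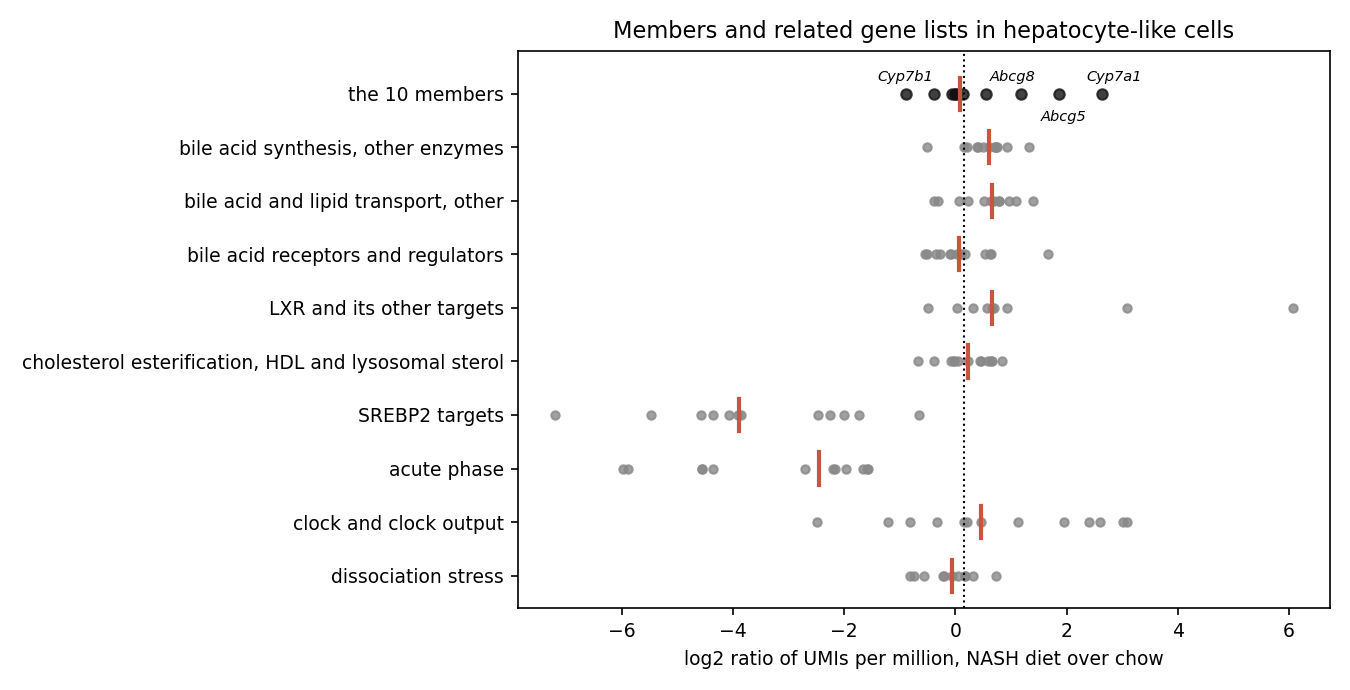
Log2 ratio of CPM in hepatocyte-like cells, NASH diet over chow, for the 10 genes (black, top row) and the measured genes of 9 related lists (grey); red marks are medians and the dotted line is the median of all genes, 0.15. The SREBP2 targets and the acute phase genes lie to the left of 0, and Cyp7a1, Abcg5 and Abcg8 lie to the right of 1.

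Other gene groups differed in the same contrast. All 12 acute phase genes were at least 2-fold lower on the NASH diet (median -2.46; Saa2 -5.97, Saa3 -5.88, Fgg -1.59, Fgb -1.58). Of 13 clock genes, 6 were at least 2-fold higher and 2 lower, with Dbp at 3.08, Per3 at 3.02, Nfil3 at -1.21 and Arntl, the clock activator, at -2.49. Cyp7a1 is known to follow the time of day in mouse liver, and the labels give no time of collection. Of 11 dissociation stress genes, 0 passed 2-fold in either direction (median -0.07; Dnajb1 0.72, Hspb1 0.31, Zfp36 -0.74, Egr1 -0.82). The part of these programmes in the levels of the 10 genes was not tested, and with 1 library a diet they cannot be told apart from the diet.

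Over 10 points, 5 groups along the zone score in each library, the 3 genes whose log2 levels ran most like each of the 10 were sought among 4152 genes with a mean of at least 20 CPM. For Cyp7a1 these were Eif1 (Pearson r 0.99), Pebp1 and Nr1i3 (0.98 each). For Cyp27a1 they were Cyp2c50, Cyp1a2 and Cyp2c54 (0.99 each), of which Cyp1a2 had helped to set the score. Abcg5 and Abcg8 had different neighbours, Ahcy, Tex261 and Pex7 (0.99 each) for the first and Acot1 and Fbxo3 (0.99 each) for the second. For Slc10a1 they were Car14 (0.99), Dyrk2 and Rassf3 (0.98 each), and for Abcb11, whose level varied little, Tob1, Reps2 and Retreg1 reached 0.86, 0.85 and 0.82. All 10 points come from 2 libraries, so these values describe the 2 libraries and carry no test.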

How the data were processed

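Per the labels, single liver cells were profiled with a 10x Genomics 3′ kit. The submitters' processing notes name Cell Ranger 3.1.0, Seurat and build mm10, whereas the deposited matrix headers give software version 3.0.2. The deposited values were raw UMI counts, whole numbers for each gene in each barcode; each library's own matrix was used, since in the merged matrix the chow part held 86.4% of its UMIs. The 10 genes and the related lists were chosen with earlier results of these data known.

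Barcodes with at least 200 genes, 500 UMIs and at most 30% mitochondrial UMIs passed the filters (4326 and 2369 in the chow and NASH diet libraries). Among all barcodes, the 433 and 276 with the highest Scrublet scores (0.8% per 1000 barcodes) were marked as likely doublets. The 4041 and 2306 that passed the filters and were not marked were kept. Scanpy 1.11.5 clustered both libraries together (2000 variable genes, 30 components, 15 neighbours, Leiden resolution 1, seed 0). Clusters were named from marker lists: by mean log2 fold of at least 1 with at least 3 markers in 10% of cells, and as hepatocyte-like by at least 2 over the non-parenchymal clusters, thresholds set after seeing the data. Clusters named low-UMI, shallow ones that passed the hepatocyte threshold, were not used. Cluster 10 (24 chow and 10 NASH diet cells, median 846 UMIs) was also shallow but was kept as endothelial by its markers. Endothelial and Kupffer cells were gated by at least 3 markers and under 2% hepatocyte marker UMIs. Doublets and names were not checked against the authors' own annotation, which was not used here.

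CPM were computed from summed counts, and intervals are exact Poisson, exact binomial (Clopper-Pearson) or conditional binomial at 95%. Log2 ratios used no pseudocount; a zero would be set to 3 counts. Calculations were tested on simulated data. GENCODE M21 matched 99.6% of gene identifiers. Of the zone score, 20.9% of chow and 24.4% of NASH diet cells lay within 0.1 SD of a boundary. Named genes are the 10, the 2 highest and 2 lowest of each list, known partners of the 10, and the 3 genes most like each of the 10. Some genes that this rule names are not reported here. Motif letters were chosen after seeing the data. All p-values were left out because each diet had 1 library.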

Additional observations from a re-analysis of the deposited data

Results flagged for a closer look

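For 2 of the 10 genes the difference between the diets pointed in opposite directions in the 2 outer groups of the zone score. Abca1, the exporter that starts HDL formation, had a log2 ratio of NASH diet over chow of 0.36 (0.26 to 0.45) in the pericentral group and -0.31 (-0.41 to -0.20) in the periportal group; its level in the whole class was 153 CPM on both diets. Cyp27a1 had -0.10 (-0.19 to -0.02) in the pericentral and 0.25 (0.07 to 0.43) in the periportal group. In the middle group Abca1 had -0.15 (-0.27 to -0.04). Cyp27a1 had -0.31 (-0.47 to -0.16) there, its lowest value of the 3 groups, so its ratio did not run steadily along the score. The groups were ranked within a library and need not hold cells of the same position in both. In the whole class the sign of both genes changed with the setting. Each diet had 1 library, and the difference between the groups was not tested.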

How the results depend on the processing

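Counts of the 10 genes at least 2-fold higher were 3 in all 14 alternatives, and zone counts were 5 in chow and 4 to 5 on the NASH diet in all 6. The count at least 2-fold lower was 1 (Cyp7b1) with a mitochondrial limit of 20% and with ratios centred on the median of all genes. The median log2 ratio of the 10 was -0.0742 with that centring and -0.00942 with a denominator without mitochondrial and acute phase genes, which was added after seeing the data, as were the 10 to 30% mitochondrial window and the omission of the nuclear RNA cluster. The cause was not tested. The median of all genes ranged from 0.00 to 0.30 over the settings, the latter with the 20% limit, under which 7.73% of genes were at least 2-fold higher and 2.52% lower, against 3.43% and 2.3%; with centring these were 2.56% and 2.94%. Under the 20% limit Cyp7a1 reached 3.46. Leaving out a replicate was not possible with 1 library a diet. No paired analysis was possible because each diet had a single library and no test was made. Depth limits the cells outside hepatocytes most, where 1 UMI stood for 2.95 to 17.6 CPM in endothelial and Kupffer cells.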
